A study of Mus musculus with 8 samples.

Results

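The genes of cholesterol and fatty acid synthesis, with the regulators of the SREBP pathway, were followed in RNA from pancreatic islets of NOD mice given PAHSA or vehicle. Members were the 33 listed sterol, fatty acid and SREBP genes, found by symbol among the 13725 genes of the deposited table. All 33 were in the table, and all 33 passed the filter on low values that left 12231 genes for testing. The list holds 7 enzymes of the mevalonate and isoprenoid steps and 3 enzymes that form squalene and lanosterol. It further holds 8 enzymes that convert lanosterol to cholesterol, 5 SREBP regulators, the sterol carrier Stard4 and 9 enzymes of fatty acid synthesis, elongation and desaturation.

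PAHSAs, lipids in which palmitic acid is esterified to a hydroxy stearic acid, were the treatment, spelled PASHA in the sample labels. The groups were islets of 10-week-old female NOD mice treated with PAHSA (4 libraries, numbered 1, 2, 3 and 4) and islets of female NOD mice of the same age treated with vehicle (4 libraries, numbered 1, 3, 4 and 5). NOD is an inbred strain that develops autoimmune diabetes. The design text speaks of 4 mice per group and the protocol of islets pooled from 2 mice per sample, so a library may hold islets of 1 mouse or of a pool. Replicates are libraries in either case, and their spread is what the p-values measure, which may be partly technical. Dose, route and length of treatment are not stated in the labels.

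Sterols are built from acetyl-CoA through mevalonate and farnesyl diphosphate to squalene, which is closed to lanosterol and trimmed to cholesterol. SREBP transcription factors, encoded by Srebf1 and Srebf2, are held in the membrane of the endoplasmic reticulum with Scap. When sterols are abundant, Insig proteins retain Scap there, and when sterols are scarce SREBPs are carried to the Golgi, cut and sent to the nucleus, where they raise transcription of synthesis genes. SREBP encoded by Srebf2 is known mainly for sterol genes and the short isoform of Srebf1 mainly for fatty acid genes.

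Values are log2 CPM, a gene's counts scaled to its library on the log2 scale, as the authors deposited them. Recovered estimated counts ran from 35356278 to 39359123 in PAHSA libraries and from 34461742 to 45236238 in vehicle libraries. All 10 beta cell markers were present and summed to 14.1% to 17.6% of CPM in PAHSA libraries and 13.7% to 18.001% in vehicle libraries. Of these 10, 8 (80.0%, against 49.1% of all genes tested) had a higher mean with PAHSA, with a median difference of 0.28. In limma 3 (30.0%, against 7.31% of all genes tested) had an unadjusted p under 0.05, and 0 an adjusted p under 0.05. The acinar list, markers of the exocrine tissue around islets, summed to 0.061% to 2.16% in PAHSA libraries and 1.42% to 5.65% in vehicle libraries, and 24 of its 24 tested genes had a lower mean with PAHSA. In limma 18 of these 24 (75.0%, against 7.31% of all genes tested) had an unadjusted p under 0.05, and 0 passed an adjusted p of 0.05. Duct markers summed to 0.312% to 0.401% against 0.384% to 0.575%, and stellate, fibroblast and pericyte markers to 0.004% to 0.014% against 0.008% to 0.031%, in PAHSA and vehicle libraries in that order. In bulk RNA of this kind, fewer cells of a type and less RNA per cell cannot be told apart. Beyond the fits with an acinar or a stellate covariate, the part of other cells in the values of the 33 genes was not tested. PAHSA library 4 stood apart from the other 7 on the first principal component of all tested genes, which held 21.8% of the variance, and vehicle library 4 lay farthest on the opposite side.

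No difference of the 33 genes between PAHSA and vehicle islets passed the test over all genes, and most were small beside the spread between libraries. With limma, 0 of 33 passed an adjusted p of 0.05, against 0 of 12231 genes in all (0%). At an unadjusted p under 0.05 there were 2 members, Fdps and Nsdhl, both higher in PAHSA, which is 6.06% of the members against 7.31% of all genes tested. In 0 members did the 4 PAHSA libraries lie entirely above or below the 4 vehicle libraries, a separation found in 4.01% of all genes. The share of members at either limit was thus no larger than the background.

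In PAHSA the mean was higher for 17 members and lower for 16, with a median difference of 0.0009 log2 units against -0.006 over all genes, of which 49.1% were higher. The difference without its sign had a median of 0.07 among members and 0.20 among all genes. Differences ran from -0.31 for Acaca to 0.67 for Tm7sf2. The 95% interval of the difference lay within 1.5-fold in either direction for 17 of 33 members (51.5%, against 31.4% of all genes) and within 2-fold for 30 (90.9%, against 63.8%). The members whose interval reached beyond 2-fold were Mvk, Tm7sf2 and Nsdhl. Intervals of members were narrower than those of all genes, with a median reach of 0.41 to either side against 0.55. Members and all genes were not matched for expression level, and its part in these comparisons was not tested.

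**Figure D1:**
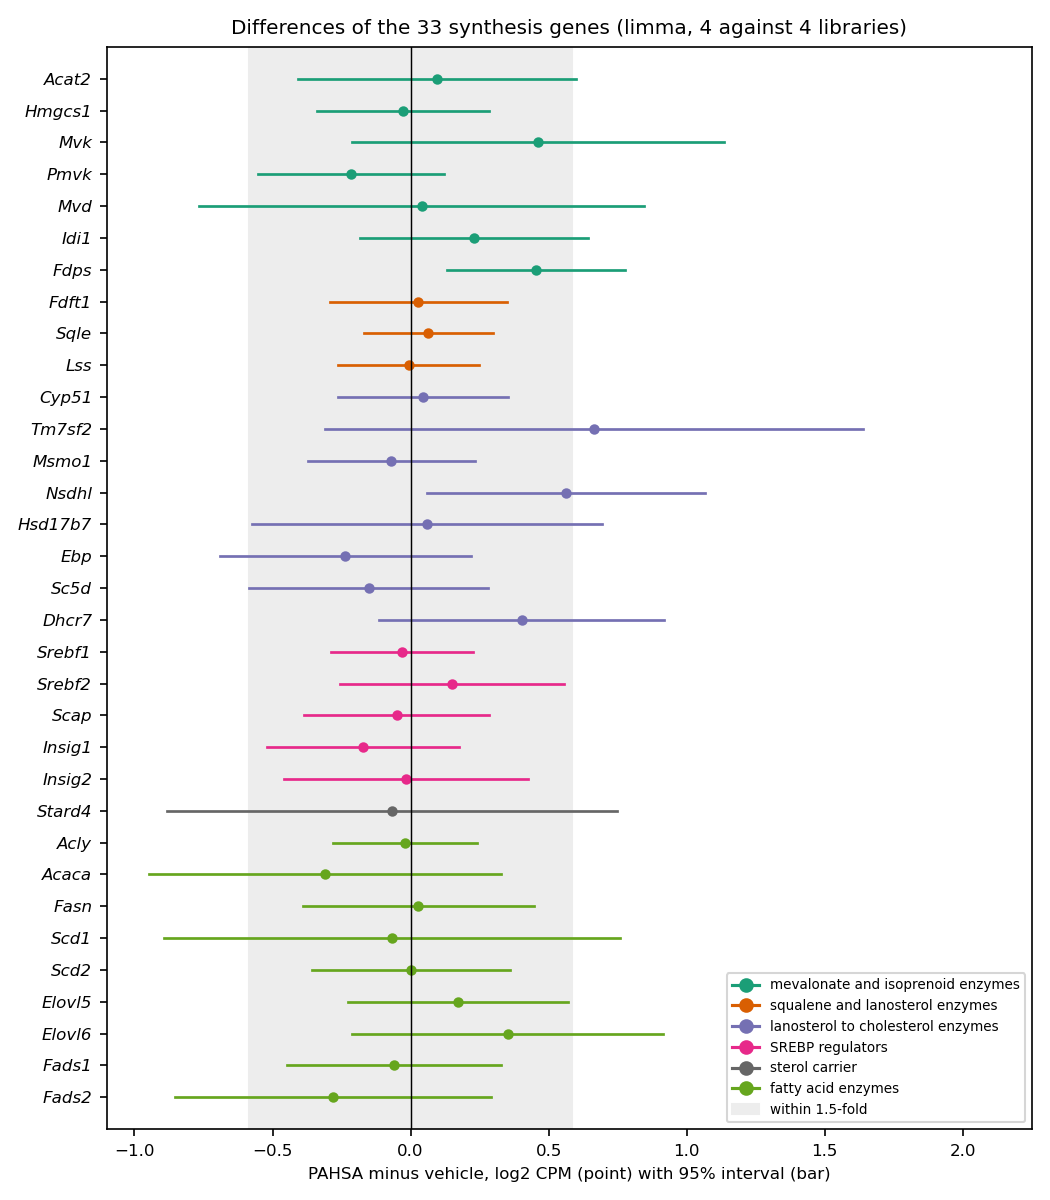
Difference of each of the 33 genes between PAHSA and vehicle libraries in log2 CPM (horizontal axis, points) with its 95% interval from limma (bars), with genes coloured by role down the page and the range within 1.5-fold shaded. Most intervals span 0, and those of Fdps and Nsdhl lie to the right of it, with adjusted p of 0.671 for each.

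Levels are compared between genes only as CPM per kilobase of the longest transcript, averaged over the 8 libraries. Acly, which cleaves citrate to make cytosolic acetyl-CoA for both pathways, had the highest level by far, at 906, a level above that of 99.6% of tested genes. Fdps followed at 146, Sqle at 109, Scd2 at 101 and Msmo1 at 71.1. The lowest levels were those of Acaca at 2.30, Stard4 at 3.38, Scd1 at 3.67 and Elovl6 at 4.00. The committed enzyme of fatty acid synthesis, acetyl-CoA carboxylase (Acaca), was thus listed far below the enzyme that supplies its substrate, with 18.7% of tested genes lower.

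**Figure D2:**
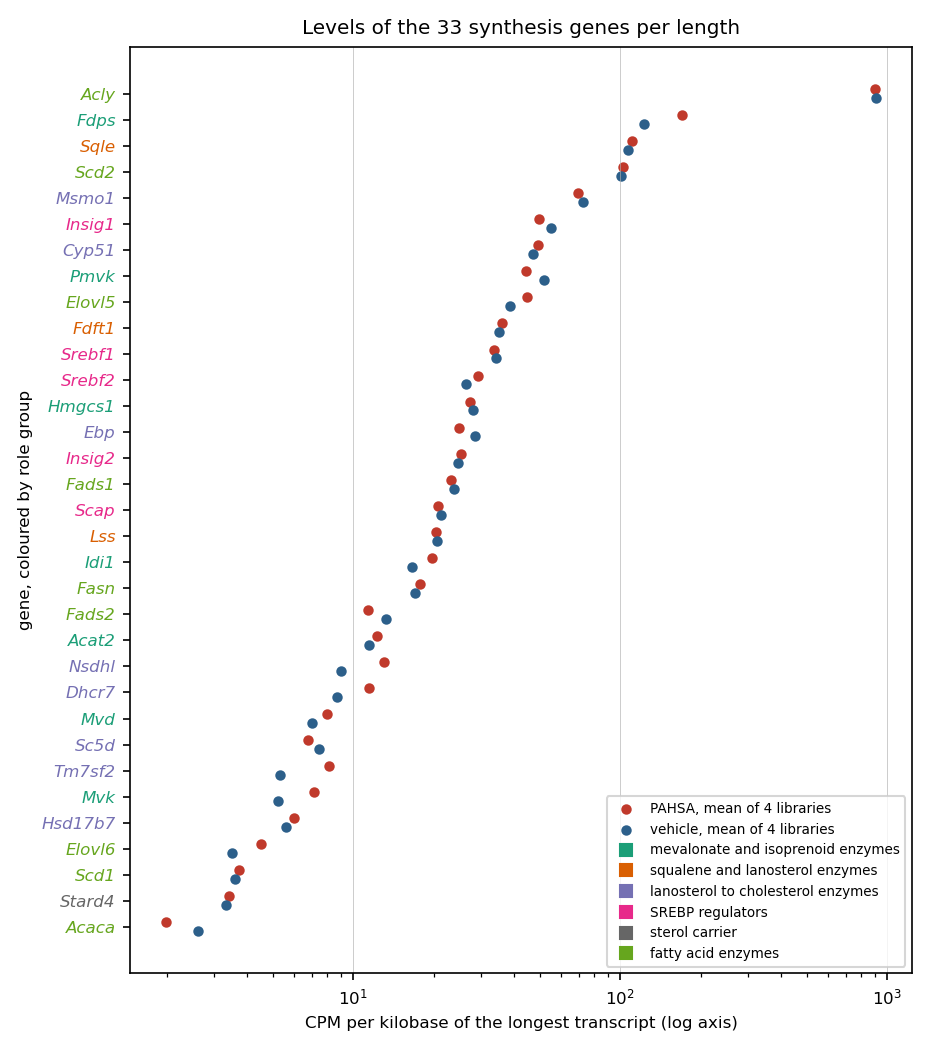
Level of each gene as mean CPM per kilobase of its longest transcript (horizontal log axis) in PAHSA and in vehicle libraries (n = 4 each), with genes ordered by level and names coloured by role. Acly stands at 900 with PAHSA and 911 with vehicle, and the PAHSA and vehicle points of most genes lie close together.

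The sterol enzymes included the only members with an unadjusted p under 0.05. Of these 18 enzymes, 12 had a higher mean in PAHSA and 6 a lower one, with a median difference of 0.05 that ran from 0.01 to 0.20 over the 19 alternative analyses. Averaged over the 18 genes within a library, log2 CPM was 5.72 ± 0.12 in PAHSA and 5.59 ± 0.08 in vehicle (SD, n = 4 each), and the library means overlapped, with a range of 5.57 to 5.85 in PAHSA and 5.49 to 5.67 in vehicle. The median was 0.14 without PAHSA library 4 and 0.01 without PAHSA library 3.

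Among the 7 mevalonate and isoprenoid enzymes, 5 had a higher and 2 a lower mean in PAHSA, with a median difference of 0.09. The promoter of Hmgcs1 is shown because it was the only member window with the classic sterol regulatory element searched for, that of Nsdhl because it had the smallest p among members with a window, and that of Insig1 because its gene encodes the feedback inhibitor. Each sequence gives the 200 bases before the RefSeq start on the plus strand of GRCm38.p6, at chr13:119690151-119690350, chrX:72918321-72918520 and chr5:28071212-28071411 in the order printed. Capitals mark the sterol regulatory element TCACNCCAC, the CCAAT box on either strand, and the E-box, which reads CACGTG.
Hmgcs1: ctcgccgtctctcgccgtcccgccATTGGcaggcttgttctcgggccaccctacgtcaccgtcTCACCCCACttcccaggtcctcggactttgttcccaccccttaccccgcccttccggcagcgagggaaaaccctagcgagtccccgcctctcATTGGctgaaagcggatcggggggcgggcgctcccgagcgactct
Nsdhl: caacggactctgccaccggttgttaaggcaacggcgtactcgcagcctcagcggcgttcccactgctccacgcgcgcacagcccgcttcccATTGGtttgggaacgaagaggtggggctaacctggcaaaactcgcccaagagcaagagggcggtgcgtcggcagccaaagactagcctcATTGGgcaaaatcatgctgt
Insig1: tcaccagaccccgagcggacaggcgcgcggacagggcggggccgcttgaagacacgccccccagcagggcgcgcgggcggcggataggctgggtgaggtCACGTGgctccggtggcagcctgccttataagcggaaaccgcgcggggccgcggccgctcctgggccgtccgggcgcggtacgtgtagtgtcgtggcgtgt

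Windows from 250 bases before to 50 after a start were matched in RefSeq for 26 of the 33 members, and these letters were searched on both strands. CCAAT was found in 21 of 26 members (80.8%), in 42.9% of the 9333 tested genes with a window and in 37.4% of all 32851 windows. GGGCGG, the GC box, which is not in capitals above, was found in 21 of 26 members (80.8%), in 69.8% of tested genes and in 35.7% of all windows. CACGTG was present in 6 members (23.1%), in 12.0% of tested genes and in 7.15% of all windows. TCACNCCAC was present in 1 member (3.85%), in 1.26% of tested genes and in 1.24% of all windows. A match to letters is a description of the window and not a binding site. Whether the shares of members differ from those of tested genes was not tested, and the absence of a match says only that these letters are not in the window.

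Hmgcs1 (ENSMUSG00000093930, chromosome 13 from 119690379 to 119708260 in GRCm38) encodes the synthase that makes HMG-CoA. It stood at 6.76, 6.45, 6.49 and 6.53 log2 CPM in PAHSA libraries 1 to 4, against 6.85, 6.27, 6.56 and 6.66 in vehicle libraries 1, 3, 4 and 5. The vehicle libraries spanned the whole range of the PAHSA libraries. The difference was -0.03 (SE 0.14) with a 95% interval from -0.34 to 0.28. Acat2, a thiolase that joins acetyl-CoA units, differed by 0.09 (SE 0.23) and phosphomevalonate kinase, Pmvk, by -0.22 (SE 0.15). Idi1, the isopentenyl diphosphate isomerase, differed by 0.23 (SE 0.19), by 0.11 without PAHSA library 3 and by 0.36 without PAHSA library 4.

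Fdps (ENSMUSG00000059743, chromosome 3 from 89093588 to 89101959) encodes farnesyl diphosphate synthase, whose product goes to squalene, to dolichol and ubiquinone and to protein prenylation. It measured 7.72, 8.12, 8.07 and 7.49 log2 CPM in PAHSA libraries 1 to 4, against 7.34, 7.44, 7.25 and 7.57 in vehicle libraries 1, 3, 4 and 5. The values of PAHSA libraries 1, 2 and 3 lay above every vehicle value, and PAHSA library 4 lay among the vehicle libraries. Means were 7.85 ± 0.30 in PAHSA and 7.40 ± 0.14 in vehicle (SD). The difference of 0.45 (SE 0.15) is 1.37-fold with a 95% interval from 1.09-fold to 1.71-fold, and it did not pass over all genes (limma, unadjusted p = 0.011, adjusted p = 0.671). It was 0.57 without PAHSA library 4 (limma, adjusted p = 0.316), and 0.36 without PAHSA library 2. A covariate for the acinar list gave 0.68 (limma, adjusted p = 0.380), and a covariate for the stellate list 0.34 (limma, adjusted p = 0.906).

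The span of Fdps, introns included, shares 7512 bases on the same strand with that of Gm43738, a protein-coding gene of the same locus. Overlap of their exons was not computed, so how far kallisto may divide reads between them is not known. Gm43738 itself averaged 2.79 ± 0.34 log2 CPM in PAHSA libraries, against 2.40 ± 0.38 in vehicle libraries (SD, n = 4 each). CPM of both genes summed gave a difference of 0.45, as for Fdps alone. Fdps, at 7.85 and 7.40 log2 CPM, makes up most of that sum, so the sum says little about a division of reads.

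Mevalonate kinase, Mvk, phosphorylates mevalonate. It had 3.24, 3.36, 3.90 and 3.68 log2 CPM in PAHSA libraries 1 to 4, against 3.36, 3.15, 3.31 and 2.52 in vehicle libraries 1, 3, 4 and 5. Vehicle library 5 was the lowest of all, and vehicle libraries 1 and 4 lay among the PAHSA values. Its difference was 0.46 (SE 0.30; limma, unadjusted p = 0.159, adjusted p = 0.763), and 0.27 without vehicle library 5. Mvd, the decarboxylase that follows Pmvk, was singled out after its values were seen, for a spread of 0.77 (SD) among PAHSA and 0.08 among vehicle libraries. It read 4.22, 3.43, 4.34 and 2.67 log2 CPM with PAHSA and 3.56, 3.57, 3.74 and 3.63 with vehicle, a difference of 0.04 (SE 0.36). The PAHSA libraries thus lay on either side of a narrow vehicle range, and the difference in spread was not tested. A wider spread with PAHSA was seen in most members and was not particular to Mvd. The SD was 0.44 against 0.09 for Insig2 and 0.41 against 0.05 for Elovl5, and the other way for Acaca (0.08 against 0.62). The share of all tested genes with a wider spread in PAHSA was not computed, so the pattern cannot be called a trait of the members. Library weights over all tested genes, which are lower for more variable libraries, were lower in every PAHSA library than in vehicle libraries 1, 3 and 5. Vehicle library 4 had the lowest weight. Mvd lies within the long span of Gm20388 (chromosome 8 from 119910841 to 124345722, introns included) on the opposite strand, and the Nextera XT kit does not mark the strand. Overlap of the exons of Mvd and Gm20388 was not computed. Gm20388 averaged 6.81 log2 CPM with PAHSA and 6.83 with vehicle, far above Mvd at 3.66 and 3.62. The summed CPM of both genes differed by 0.002 on the log2 scale. That sum mostly follows Gm20388 and cannot show whether Mvd differed. The median of the mevalonate stage was 0.36 without PAHSA library 4 and -0.0049 without PAHSA library 3.

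For each of the 3 enzymes of squalene and lanosterol formation the interval lay within 1.5-fold. Sqle, the squalene epoxidase and an oxygen-requiring control point of the pathway, had 8.16, 8.26, 8.29 and 8.30 log2 CPM in PAHSA libraries 1 to 4, against 8.25, 8.38, 7.93 and 8.20 in vehicle libraries 1, 3, 4 and 5. All PAHSA values lay inside the vehicle range, and the difference was 0.06 (SE 0.11, 95% interval from -0.17 to 0.30). Fdft1, the squalene synthase, had 6.73, 7.31, 7.24 and 6.88 in PAHSA and 7.18, 6.95, 6.90 and 7.03 in vehicle libraries. Here the vehicle values lay inside the PAHSA range, with a difference of 0.03 (SE 0.14). The span of Fdft1 shares 774 bases with that of Ctsb on the opposite strand. Likewise Cyp51 shares 166 with Akap9, and Srebf1 109 with Rai1. The part of these overlaps in the values was not tested. Lss, which closes squalene epoxide to lanosterol, differed by -0.01 (SE 0.12) and had the lowest SD within groups of all members, 0.13.

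Of the 8 enzymes from lanosterol to cholesterol, 5 had a higher and 3 a lower mean in PAHSA, with a median difference of 0.05. Nsdhl (ENSMUSG00000031349, chromosome X from 72918557 to 72958514) encodes a sterol dehydrogenase that takes part in the removal of methyl groups from the ring. It stood at 4.87, 4.92, 4.61 and 4.85 log2 CPM in PAHSA libraries 1 to 4, against 4.61, 4.34, 3.68 and 4.37 in vehicle libraries 1, 3, 4 and 5. The groups overlapped only in that PAHSA library 3 lay just under vehicle library 1, and vehicle library 4 was the lowest. Means were 4.81 ± 0.14 in PAHSA libraries and 4.25 ± 0.40 in vehicle libraries (SD). The difference of 0.56 (SE 0.23) is 1.48-fold with a 95% interval from 1.04-fold to 2.09-fold, and it did not pass over all genes (limma, unadjusted p = 0.032, adjusted p = 0.671). Without vehicle library 4 it was 0.37 (limma, adjusted p = 0.731), which left Fdps as the 1 member under an unadjusted p of 0.05. A covariate for the acinar list gave 0.43 for Nsdhl, and a covariate for the stellate list 0.78.

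Dhcr7, the reductase that makes cholesterol from its immediate precursor in the Kandutsch-Russell branch, had 4.92, 5.12, 5.31 and 4.57 log2 CPM in PAHSA libraries 1 to 4, against 4.82, 4.63, 4.06 and 4.82 in vehicle libraries 1, 3, 4 and 5. The PAHSA libraries other than library 4 lay above every vehicle library. The difference was 0.40 (SE 0.23; limma, unadjusted p = 0.115, adjusted p = 0.747), 0.54 without PAHSA library 4 and 0.23 without vehicle library 4. Tm7sf2, a sterol reductase, had the largest difference and the largest spread of all members, at 0.67 (SE 0.44) with an SD within groups of 0.68. Its values, given after they were seen, were 3.001, 3.009, 4.07 and 3.98 in PAHSA and 3.22, 3.72, 2.41 and 2.05 in vehicle libraries. The values of each group spread over more than 1 log2 unit and overlapped. The span of Tm7sf2, introns included, shares 532 bases with that of Vps51 on the same strand. The difference of Tm7sf2 was 0.40 without vehicle library 5, 0.96 without vehicle library 3, 0.24 with the acinar covariate and 1.27 with the stellate covariate.

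For the other enzymes of this stage the differences were between -0.24 and 0.06. Cyp51, the lanosterol demethylase, differed by 0.05 (SE 0.14), the methylsterol monooxygenase Msmo1 by -0.07 (SE 0.14) and the ketosteroid reductase Hsd17b7 by 0.06 (SE 0.29). The sterol isomerase Ebp differed by -0.24 (SE 0.21) and the sterol desaturase Sc5d by -0.15 (SE 0.20). Successive steps of the same route thus gave differences of either sign.

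**Figure D3:**
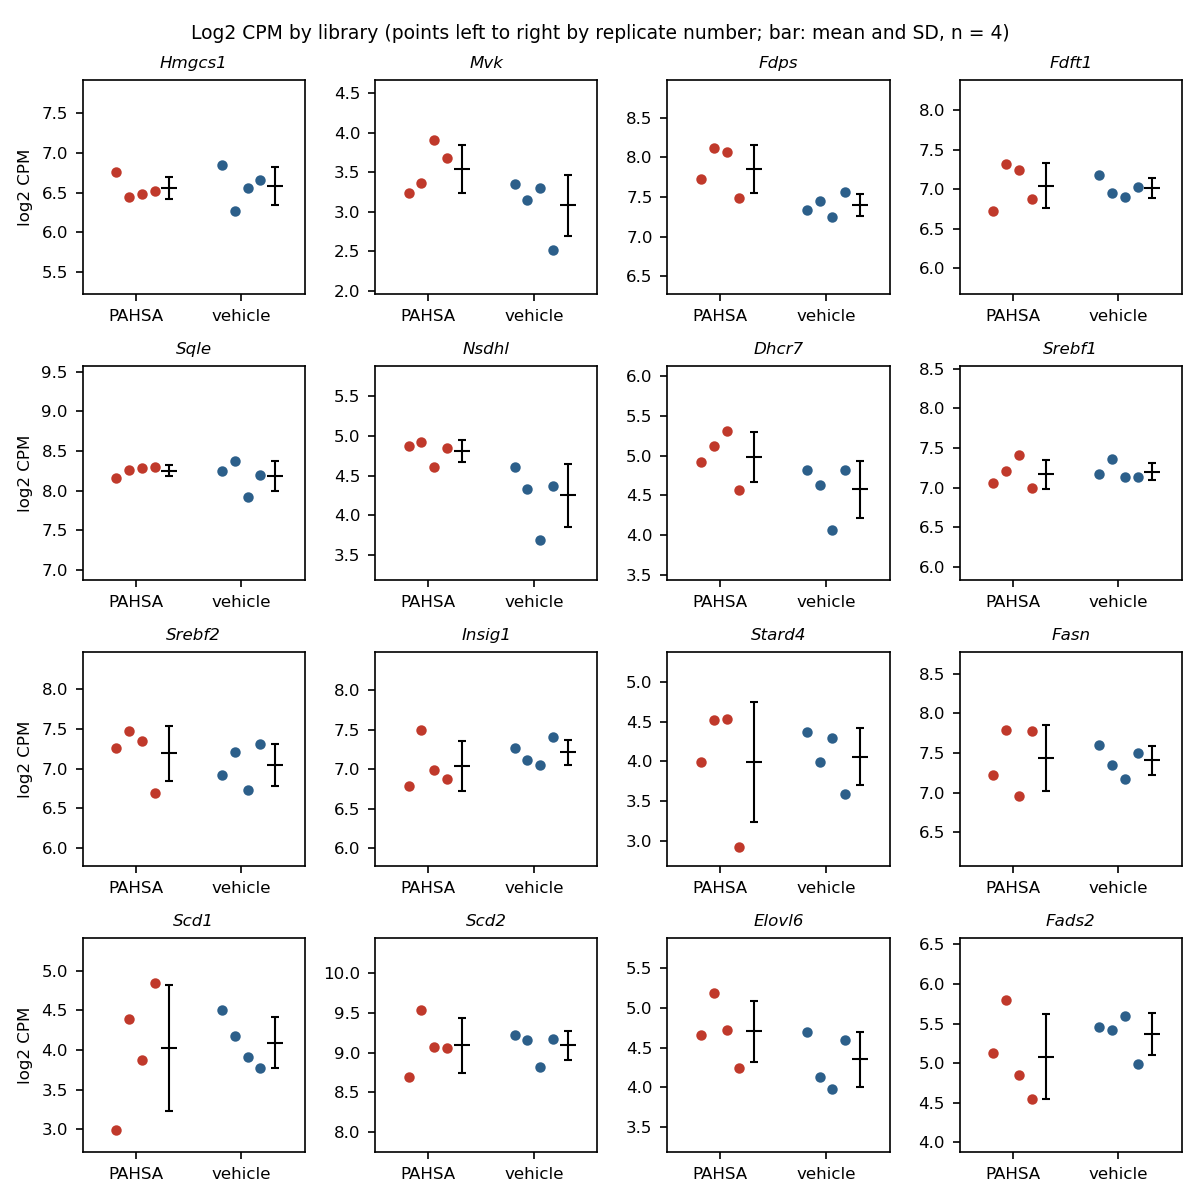
Log2 CPM of 16 genes in each of the 4 PAHSA and 4 vehicle libraries (points, left to right by replicate number), with mean and SD (bars). The groups overlap in every panel, least in Nsdhl (means 4.81 with PAHSA and 4.25 with vehicle) and Fdps (7.85 and 7.40).

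The 5 SREBP regulators had differences between -0.17 and 0.15, and all 5 intervals lay within 1.5-fold. Of these genes 1 had a higher and 4 a lower mean in PAHSA, with a median difference of -0.03, and their mean in a library was 6.77 ± 0.13 log2 CPM with PAHSA and 6.80 ± 0.07 with vehicle (SD, n = 4 each). Srebf1 had 7.05, 7.21, 7.41 and 6.99 in PAHSA libraries 1 to 4, against 7.17, 7.36, 7.13 and 7.13 in vehicle libraries 1, 3, 4 and 5. Srebf2 had 7.26, 7.47, 7.35 and 6.70 in PAHSA, against 6.92, 7.21, 6.73 and 7.31 in vehicle. PAHSA library 4 was the lowest of its group for both transcription factors. The differences were -0.03 (SE 0.12) for Srebf1 and 0.15 (SE 0.18) for Srebf2, with 95% intervals from -0.29 to 0.23 and from -0.26 to 0.55. That of Srebf2 was 0.045 without vehicle library 4 and 0.31 without PAHSA library 4.

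Insig1 (ENSMUSG00000045294, chromosome 5 from 28071363 to 28078662), itself a sensitive SREBP target, had 6.79, 7.50, 6.99 and 6.88 log2 CPM in PAHSA libraries 1 to 4, against 7.26, 7.11, 7.06 and 7.41 in vehicle libraries 1, 3, 4 and 5. PAHSA libraries 1, 3 and 4 lay under every vehicle library, while PAHSA library 2 lay above them all. The difference was -0.17 (SE 0.16, 95% interval from -0.52 to 0.18), -0.33 without PAHSA library 2 (limma, adjusted p = 0.587) and -0.088 without PAHSA library 1. Insig2 differed by -0.02 (SE 0.20) and Scap by -0.05 (SE 0.15). Stard4 (chromosome 18), a soluble sterol transfer protein and known SREBP target, had 3.99, 4.53, 4.54 and 2.92 in PAHSA and 4.37, 3.99, 4.29 and 3.59 in vehicle libraries. Apart from PAHSA library 4 at 2.92, its values in the groups interleaved, and the difference was -0.07 (SE 0.37).

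Of the 9 fatty acid enzymes, 4 had a higher and 5 a lower mean in PAHSA, with 0 under an unadjusted p of 0.05 and 9 intervals within 2-fold. Their median difference was -0.02. It was 0.099 without PAHSA library 1 and -0.091 without PAHSA library 2, 0.05 under quantile normalization and 0.19 with the stellate covariate. Acly, given after its level was seen, had 11.70, 12.12, 12.07 and 11.91 log2 CPM in PAHSA libraries 1 to 4, against 12.14, 12.00, 11.72 and 12.02 in vehicle libraries 1, 3, 4 and 5. The ranges of the groups nearly coincided, with a difference of -0.02 (SE 0.12, 95% interval from -0.28 to 0.24). Fasn, the fatty acid synthase, had 7.22, 7.79, 6.95 and 7.77 in PAHSA and 7.60, 7.35, 7.18 and 7.50 in vehicle libraries. Its PAHSA libraries lay 2 above and 1 below all vehicle libraries, with a difference of 0.03 (SE 0.19).

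Acaca, which makes malonyl-CoA, was tight with PAHSA and wide with vehicle, at 4.24 ± 0.08 and 4.55 ± 0.62 log2 CPM (SD, n = 4 each). Its difference of -0.31 (SE 0.29) was the lowest among members, -0.57 without vehicle library 1 (limma, adjusted p = 0.807) and -0.11 without vehicle library 3.

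Scd1 and Scd2 are stearoyl-CoA desaturase genes of the same cluster on chromosome 19, at 44394455 to 44407879 and 44293674 to 44306864, which introduce the double bond of oleate and palmitoleate. In these islets Scd2 dominated, at 102 CPM per kilobase in PAHSA and 101 in vehicle, against 3.74 and 3.60 for Scd1. Scd2 had 8.69, 9.54, 9.08 and 9.06 log2 CPM in PAHSA libraries 1 to 4, against 9.22, 9.16, 8.82 and 9.17 in vehicle libraries 1, 3, 4 and 5. The difference was 0.0009 (SE 0.16, 95% interval from -0.36 to 0.36), and its sign changed when the libraries were shifted to the same median (-0.01). Scd1 had 2.99, 4.39, 3.88 and 4.84 in PAHSA and 4.50, 4.18, 3.91 and 3.77 in vehicle libraries, a difference of -0.07 (SE 0.37). PAHSA library 1 was lowest of its group for both desaturases, and PAHSA libraries 1 and 4 lay on either side of the vehicle range of Scd1. As similar paralogs they may exchange reads in the authors' quantification.

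The elongases act on long fatty acids, Elovl6 on saturated and monounsaturated ones and Elovl5 on polyunsaturated ones. Elovl6 had 4.66, 5.19, 4.72 and 4.24 log2 CPM in PAHSA libraries 1 to 4, against 4.70, 4.13, 3.98 and 4.60 in vehicle libraries 1, 3, 4 and 5. The groups overlapped, with a difference of 0.35 (SE 0.26; limma, adjusted p = 0.794), which was 0.19 without PAHSA library 2, 0.23 without vehicle library 4 and 0.51 without PAHSA library 4. Elovl5, singled out after its values were seen, had 6.31, 7.23, 7.09 and 7.06 in PAHSA and 6.81, 6.72, 6.71 and 6.76 in vehicle libraries. PAHSA library 1 was the lowest of all 8 and the other PAHSA libraries were above all vehicle libraries, so that the difference was 0.17 (SE 0.18) with library 1 0.38 without it (limma, adjusted p = 0.778) and 0.071 without PAHSA library 2. Fads2 and Fads1, desaturases of polyunsaturated fatty acids, differed by -0.28 (SE 0.26) and -0.06 (SE 0.18). Fads2 had 5.12, 5.80, 4.86 and 4.55 in PAHSA and 5.46, 5.42, 5.60 and 4.98 in vehicle libraries, with PAHSA library 2 highest of all. Its difference was -0.52 without PAHSA library 2 (limma, adjusted p = 0.609) and -0.10 without PAHSA library 4.

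Which library was lowest or highest of its group varied by stage. Of the 18 sterol enzymes, PAHSA library 4 was the lowest of its group in 7 (38.9%, against 26.9% of all tested genes) and PAHSA library 1 in 6 (33.3%, against 24.2%). PAHSA libraries 2 and 3 were each highest in 7 (38.9%, against 23.5% and 25.4%). Among the 9 fatty acid enzymes, PAHSA library 1 was lowest in 5 (55.6%, against 24.2%) and PAHSA library 2 highest in 6 (66.7%, against 23.5%). In the vehicle group, library 1 was highest in 6 (66.7%, against 23.6%) and library 4 lowest in 5 of these 9 genes (55.6%, against 30.8%). Whether these shares differ from those of all tested genes was not tested. The mean of the fatty acid enzymes per library was 6.64 ± 0.26 log2 CPM with PAHSA and 6.66 ± 0.09 with vehicle (SD, n = 4 each). Genes of a library share its preparation and depth, and these counts are a description.

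**Figure D4:**
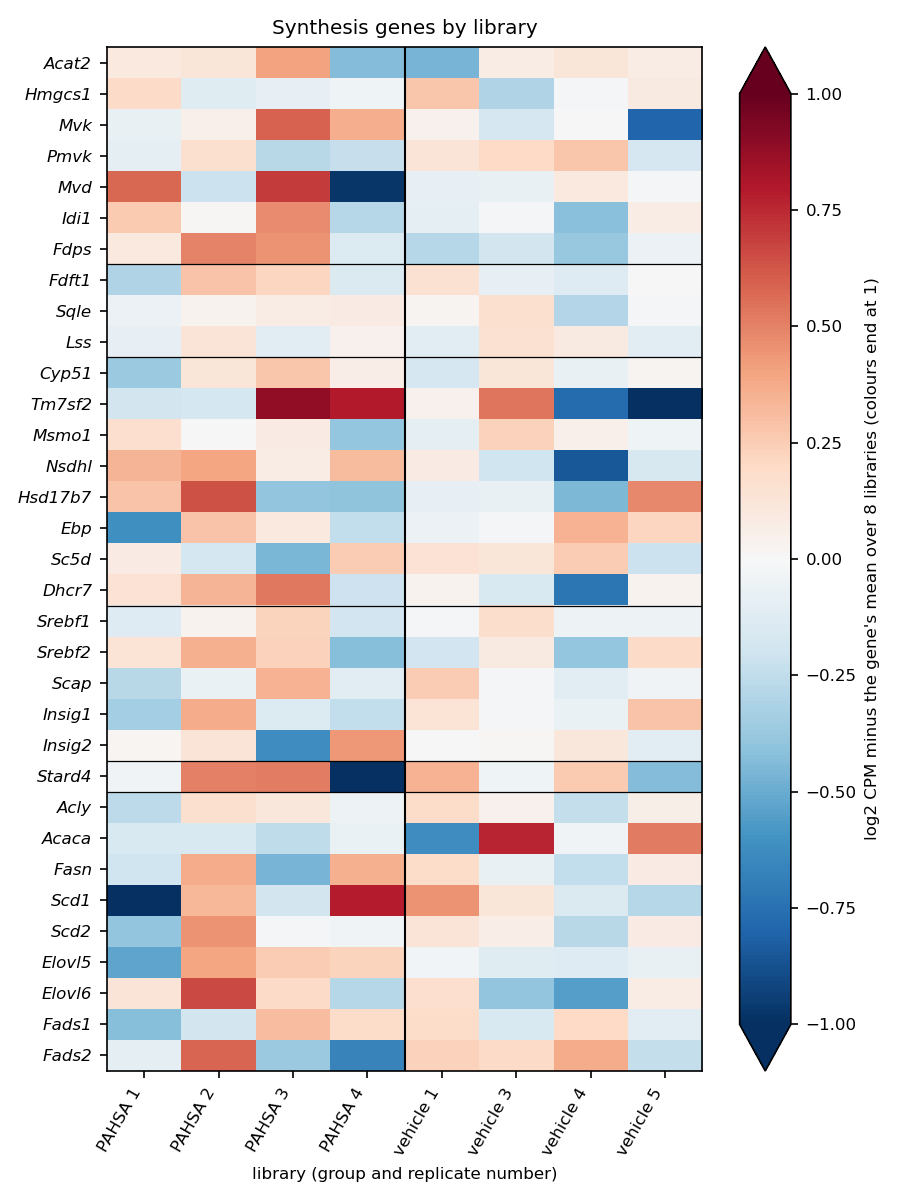
Log2 CPM of each gene in each library minus the mean of the gene over the 8 libraries (colour, ending at 1 in either direction), with PAHSA libraries left of vehicle libraries and lines between roles. PAHSA library 1 is below the gene's mean for most fatty acid enzymes and PAHSA library 2 above it, and no role forms a block by treatment.

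Ratios of members within a library remove what scales all genes of that library. Of 528 pairs of members, 17 (3.22%) had a within-library difference that separated the 4 PAHSA from the 4 vehicle libraries, against 3.93% of all pairs of tested genes. The share among members was thus no larger than the background. Fdps was in 7 of these pairs and Nsdhl in 6, and the pairs named here were chosen after their values were seen and were not tested. Fdps exceeded Insig1 by 0.61 to 1.08 log2 units in PAHSA libraries and by 0.08 to 0.33 in vehicle libraries. Fdps exceeded Fdft1, the next enzyme on the route to sterols, by 0.61 to 0.997 in PAHSA libraries and by 0.16 to 0.54 in vehicle libraries. These are differences of log2 CPM within a library and not levels per length.

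Other genes of the pathways, in 6 lists with 93 entries of which 84 were tested, held 0 calls as well. Of these 84 genes, 49 had a higher and 35 a lower mean in PAHSA, 0 passed an adjusted p of 0.05 in limma, and 9 (10.7%, against 7.31% of all genes) had an unadjusted p under 0.05, of which 7 were higher and 2 lower. The cholesterol exporter gene Abca1, a target of the sterol-sensing LXR receptors, differed by -0.20 (SE 0.14). Other genes of the LXR and efflux list went either way, with Abcg1 at 0.12 (SE 0.20), Lpcat3 at 0.06 (SE 0.12) and Mylip at -0.48 (SE 0.41).

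By list, other sterol and isoprenoid synthesis had 5 higher and 6 lower of 11 tested genes, with 0 under an unadjusted p of 0.05. SREBP processing and sterol-sensing degradation had 4 higher and 9 lower of 13, and Ubxn4, a factor of degradation at the endoplasmic reticulum, differed by 0.35 (SE 0.10). Sterol uptake, transport and esterification had 9 higher and 6 lower of 15, and Npc2, which hands cholesterol out of lysosomes, differed by 0.24 (SE 0.09). In both genes the 4 PAHSA libraries lay above the 4 vehicle libraries, at 7.14 to 7.41 against 6.83 to 7.001 log2 CPM for Ubxn4 and at 7.48 to 7.65 against 7.22 to 7.41 for Npc2. LXR and efflux had 3 higher and 5 lower of 8, with Rxra, the partner receptor of LXR, at 0.65 (SE 0.26) and Apoe at -1.20 (SE 0.53). Rxra was at 0.40 without vehicle library 3, and Apoe at -0.78 without vehicle library 1 and -0.31 with the stellate covariate.

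The list of other fatty acid synthesis and NADPH supply had 16 higher and 4 lower of 20 tested genes, with a median difference of 0.14. Mid1ip1, which activates acetyl-CoA carboxylase, differed by 0.25 (SE 0.10), at 7.37 to 7.66 log2 CPM in PAHSA and 7.07 to 7.35 in vehicle libraries. Fads6, a desaturase-like gene of very low level, differed by 1.79 (SE 0.63), at 1.15 to 2.87 in PAHSA and -0.49 to 0.81 in vehicle libraries. Activation of fatty acids and glycerolipid synthesis had 12 higher and 5 lower of 17. Acsl4, an acyl-CoA synthetase that prefers arachidonate, was at 5.38 to 5.64 in PAHSA and 5.82 to 6.43 in vehicle libraries, a difference of -0.49 (SE 0.16). Agpat3, an acyltransferase of phospholipid synthesis, was at 7.31 to 7.50 in PAHSA and 6.68 to 7.24 in vehicle libraries, a difference of 0.42 (SE 0.13), and Lpin3, a phosphatidate phosphatase gene, differed by 1.22 (SE 0.54). The difference of Lpin3 was 0.70 without vehicle library 3 and 1.68 without vehicle library 1. In limma the adjusted p of these 9 genes lay between 0.671 and 0.678. The groups did not overlap in 6 of the 84 genes, against 4.01% of all tested genes.

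Adipocytes, which make fatty acids and can cling to islets, were looked for by 12 markers, of which 3 (Cidea, Pparg and Lpl) were in the table and the other 9 were not analysed here. They summed to 0.033% to 0.041% of CPM in PAHSA and 0.030% to 0.035% in vehicle libraries, a sum weighted to the most abundant gene. Of these 3 genes, 2 had a higher and 1 a lower mean in PAHSA, with differences from -1.35 to 0.39. In the lower gene the 4 PAHSA libraries lay below the 4 vehicle libraries, where 4.01% of all tested genes separated in either direction. The part of adipocytes in the values of the fatty acid genes was not tested.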

How the data were processed

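RNA of islets was sequenced from 4 PAHSA and 4 vehicle libraries (Nextera XT, per the labels' protocols). The deposited values are log2 CPM made by the authors, and kallisto and limma are named, without version, in the submitters' processing notes. Genome build and annotation: not given in the sources used here. All 8 columns were matched to libraries by name, leaving 0 unused. Symbols, positions and transcript lengths came from GENCODE M21 (GRCm38), with 56 identifiers unmatched, and promoters from RefSeq (GRCm38.p6).

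CPM of a library summed to 965680 to 1069261. Counts recovered from the 0.5 counts added before the log came out whole (within 0.01) for 47.8% to 51.5% of values, so no count test was run, and they describe depth only. No libraries were duplicates (Pearson r from 0.823 to 0.916 across genes). The log2 scale with added counts understates changes of weakly expressed genes.

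Genes with a mean log2 CPM above 0 were tested with limma 3.58.1 in R 4.3.3 (lmFit, eBayes with a trend), as a two-sided test of group without covariates. P-values were adjusted by Benjamini-Hochberg over all 12231 genes (1494 left out), with a threshold of 0.05, and intervals are 95%. The step was tested on simulated data. Members and lists were chosen with earlier results of these data known. Values per library are given for members with an unadjusted p under 0.05, for the 2 smallest p of each role, and for Hmgcs1, Sqle, Insig1, Srebf1, Srebf2, Fasn, Scd1 and Scd2. Other pathway genes are named at an unadjusted p under 0.05, and Abca1, Abcg1, Lpcat3 and Mylip were added after their values were seen. Some genes counted in these lists are not reported here by name. The 19 alternatives covered filters, scale, normalization, variance prior, library weights, libraries left out, a replicate block and marker covariates. No set test was run.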

Additional observations from a re-analysis of the deposited data

Results flagged for a closer look

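In 4 of 84 groups examined, 1 library lay far from the other 3 of its group by Dixon's test at 95%, where chance flags about 1 in 20 groups. Acat2 was low in vehicle replicate 1, at 4.248 log2 CPM, with the other vehicle libraries at 4.78 to 4.84. Scd2 was low in vehicle replicate 4, at 8.8174 log2 CPM, with the others at 9.16 to 9.22. Apoe was low in PAHSA replicate 3, at 1.0197 log2 CPM, with the others at 2.40 to 2.64. Acsl4 was high in vehicle replicate 3, at 6.4302 log2 CPM, with the others at 5.82 to 5.91.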

How the results depend on the processing

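Over the 19 alternatives to the reported limma fit, 0 genes passed an adjusted p of 0.05 in each, and the smallest adjusted p of a member was 0.316 (Fdps without PAHSA replicate 4). Genes with an unadjusted p under 0.05 numbered 650 to 1021. Members with one numbered 1 to 3 when 1 library was left out (1 without vehicle replicate 4), and 1 each with library weights, without both libraries numbered 4 and with the acinar covariate. Fdps ran from 0.34 to 0.68 and Nsdhl from 0.36 to 0.78. The median of the sterol enzymes was 0.20 with the acinar covariate. The mevalonate median was 0.31 without both libraries numbered 4, 0.39 with the acinar and -0.072 with the stellate covariate, and ran from -0.0049 to 0.36 with 1 library left out. The cause of these shifts was not tested. Of 33 members, 11 kept their sign throughout and 22 did not, in 76 of 627 values. A stellate covariate turned the sign for Acat2 (-0.27), Mvd (-0.56), Lss (0.065), Hsd17b7 (-0.062), Sc5d (0.046), Srebf2 (-0.037), Insig2 (0.25), Acly (0.097), Scd1 (0.69) and Fads1 (0.028). With the replicate number as a block (libraries 1, 3 and 4) it turned for Hmgcs1 (0.032), Fdft1 (-0.059), Fasn (-0.060) and Scd2 (-0.12). Without both libraries numbered 4 it turned for Sqle (-0.040), Lss (0.0064), Msmo1 (0.052), Srebf1 (0.0049), Stard4 (0.37), Fasn (-0.16) and Scd2 (-0.080). An acinar covariate turned the sign for Sqle (-0.0061), Msmo1 (0.078), Ebp (0.016), Srebf1 (0.059), Stard4 (0.53), Acly (0.0076), Fasn (-0.13) and Fads2 (0.052). Quantile normalization turned it for Lss (0.0083) and Acly (0.087). With library weights it turned for Lss (0.018), Stard4 (0.0080), Fasn (-0.021) and Scd2 (-0.034). With libraries shifted to the same median it turned for Scd2 (-0.012). With 1 library left out, differences that turned sign ran from -0.043 to 0.25 for Acat2, -0.13 to 0.059 for Hmgcs1, -0.19 to 0.37 for Mvd, -0.063 to 0.13 for Fdft1, -0.023 to 0.13 for Sqle, -0.052 to 0.043 for Lss, -0.039 to 0.18 for Cyp51, -0.14 to 0.048 for Msmo1, -0.14 to 0.23 for Hsd17b7, -0.11 to 0.027 for Srebf1, -0.18 to 0.032 for Scap, -0.16 to 0.19 for Insig2, -0.25 to 0.29 for Stard4, -0.10 to 0.065 for Acly, -0.091 to 0.19 for Fasn, -0.34 to 0.28 for Scd1, -0.15 to 0.13 for Scd2 and -0.17 to 0.071 for Fads1. No pairing by replicate number is stated, and the values gave no sign of one (correlations of the deviations of same-numbered libraries of -0.02 for each of numbers 1, 3 and 4). How the samples were collected cannot be told from these correlations. The block gave 747 genes under an unadjusted p of 0.05 against 894 in the reported limma fit. The 9 pathway genes named for an unadjusted p under 0.05 in limma kept their direction in all alternatives run (18 for Fads6, which the stricter filter left out). With 4 libraries a group the 95% interval reached a median of 0.41 log2 units to either side for members, which limits the precision of each difference.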
